A study of Mus musculus with 4 samples.

Results

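The genes described here encode 9 secreted proteins of the Wnt pathway: the ligands Wnt5a and Wnt16, the secreted Frizzled-related proteins Sfrp1, Sfrp2, Sfrp4 and Frzb, and the inhibitors Wif1, Dkk2 and Dkk3. They are 9 of the 27734 genes that all 4 libraries share, and each had at least 1 UMI (unique molecular identifier, the tag that marks 1 captured RNA molecule) in every library. The 9 genes were chosen by their measured levels in these same libraries and cell classes, by region and genotype, so every difference between groups given here is a description and carries no test.

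The study profiled dissociated mouse aorta by droplet single-cell RNA sequencing with the 10x Genomics 5′ chemistry, 1 library for each of 4 groups. Mice of all 4 groups were 16-20 weeks old and carried CNC-SMC-Cre and R26-tdT, read here as a driver for smooth muscle derived from the cardiac neural crest and a red tdTomato reporter. The conditional knockout (cKO) mice also carried Smad4flox/flox, which removes Smad4, the shared effector of TGF-β and BMP signalling, where the driver is active, and the control mice did not. From each genotype the aortic arch and the descending thoracic aorta were taken. How many animals were pooled for a library is not stated, and with 1 library a group the spread between animals is unknown.

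Wnt ligands bind Frizzled receptors together with the co-receptors Lrp5 and Lrp6, which stabilises β-catenin, or act through other Frizzled-linked routes without it. Secreted inhibitors work outside the cell: the Frizzled-related proteins and Wif1 bind the ligands, and proteins of the Dickkopf family bind the co-receptors. In the vessel wall the pathway is known for roles in smooth muscle growth, matrix production and calcification.

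After filtering, 5428 cells remained from the cKO arch, 7996 from the control arch, 5569 from the cKO descending aorta and 4927 from the control descending aorta, with median UMIs per cell of 5757.5, 9911.5, 6377 and 7047 in that order. Cells were gated on marker UMIs. Smooth muscle had at least 5 UMIs of Myh11 and 20 of Acta2, and fibroblasts had at least 5 of Pdgfra, Lum and Dpt together and at most 4 of Myh11. Spp1 10+ cells had at least 10 UMIs of Spp1 (osteopontin) and few of leukocyte or endothelial markers. With both arch libraries first, each pair given as cKO then control, the gates held 1007, 3080, 1317 and 1083 smooth muscle cells, 598, 1463, 1062 and 841 fibroblasts, and 309, 6, 0 and 1 Spp1 10+ cells. Pairs of libraries shared 66 to 99 cell barcodes. The Y-linked gene Ddx3y stood at 17.3 CPM (UMIs of a gene in each 1000000 UMIs of the cell class) in smooth muscle of the control arch and at 0 in the other 3 libraries, so the libraries differ in the sex of the animals, and the part of sex in any difference was not tested.

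Smad4 itself stood at 61.7 CPM (95% Poisson interval 57.6 to 66.1) in smooth muscle of the cKO arch, 71.7 CPM (69.3 to 74.2) in the control arch, 88.5 CPM in the cKO descending aorta and 90.9 CPM in the control descending aorta. In fibroblasts it stood at 64.9, 79.2, 96.6 and 85.3 CPM in the same order. The reads come from the 5′ end of the transcript and which exons are floxed is not stated, so these levels cannot show whether the gene was deleted. The cKO arch differed from the other libraries in cell make-up as well: leukocytes were 2028 of its kept cells against 752 in the control arch. Within its smooth muscle gate, 6 genes of modulated smooth muscle (Tnfrsf11b, Comp, Timp1, Igfbp2, Ly6a and Lum) summed to 1548 CPM against 97.9 to 115 CPM in the other 3 libraries, and Myh11 stood at 1866 CPM against 2724 to 3723. In the fibroblast gate, 6 fibroblast genes not used by the gate (Dcn, Pi16, Clec3b, Col1a1, Gsn and Serpinf1) summed to 19595 CPM in the cKO arch against 48692 to 55418 CPM elsewhere, with all 6 detected. Those shifts run alongside every comparison below that sets the cKO arch against another library, and their part in the results was not tested.

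The promoter sequences of 4 members are shown because the gene floxed here, Smad4, acts at DNA. Each of the 4 was past 2-fold across regions in smooth muscle or fibroblasts, as were other members not shown. RefSeq promoter windows (GRCm38.p6) exist for 5 members. The stretch upstream of the first annotated exon is printed for the 4 where it held at least 100 bases. Capitals mark any match, on either strand, to a SMAD box (CAGAC or GTCTG), a TCF/LEF core (CTTTGA or TCAAAG) or a TATA box (TATAAA or TTTATA).
Wif1, chr10:121033754-121033959, + strand: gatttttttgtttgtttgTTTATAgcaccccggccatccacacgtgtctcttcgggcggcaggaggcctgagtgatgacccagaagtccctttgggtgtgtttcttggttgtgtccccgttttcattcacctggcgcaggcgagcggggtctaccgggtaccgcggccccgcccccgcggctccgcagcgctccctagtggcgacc
Sfrp2, chr3:83766071-83766320, + strand: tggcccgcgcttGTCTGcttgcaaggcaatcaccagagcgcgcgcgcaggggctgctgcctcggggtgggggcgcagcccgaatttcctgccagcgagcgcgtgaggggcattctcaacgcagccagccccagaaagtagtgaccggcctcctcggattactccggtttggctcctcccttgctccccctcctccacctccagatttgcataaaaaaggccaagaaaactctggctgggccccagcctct
Dkk2, chr3:132085042-132085291, + strand: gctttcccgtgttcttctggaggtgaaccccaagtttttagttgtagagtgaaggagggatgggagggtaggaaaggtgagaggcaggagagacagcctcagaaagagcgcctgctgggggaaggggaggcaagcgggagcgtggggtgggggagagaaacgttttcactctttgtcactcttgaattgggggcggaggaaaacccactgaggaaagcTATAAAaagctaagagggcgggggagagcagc
Wnt16, chr6:22287977-22288226, + strand: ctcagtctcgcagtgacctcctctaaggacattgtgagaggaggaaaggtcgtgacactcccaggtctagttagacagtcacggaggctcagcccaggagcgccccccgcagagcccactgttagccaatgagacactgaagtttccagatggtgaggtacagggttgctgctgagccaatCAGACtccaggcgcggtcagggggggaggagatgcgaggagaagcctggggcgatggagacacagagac
A SMAD box stood once in the Sfrp2 window and once in the Wnt16 window, and neither the Wif1 nor the Dkk2 window held one. Among 32851 promoters cut to 250 bases, 42.2% held a SMAD box, 13.8% a TCF/LEF core and 12.4% a TATA box. At the 206 bases of the Wif1 window the shares were 36.7%, 12.1% and 9.38%. The Wif1 and Dkk2 windows each held 1 TATA box, and none of the 4 windows held a TCF/LEF core. A match to letters this short is a description of the sequence only.

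**Figure D1:**
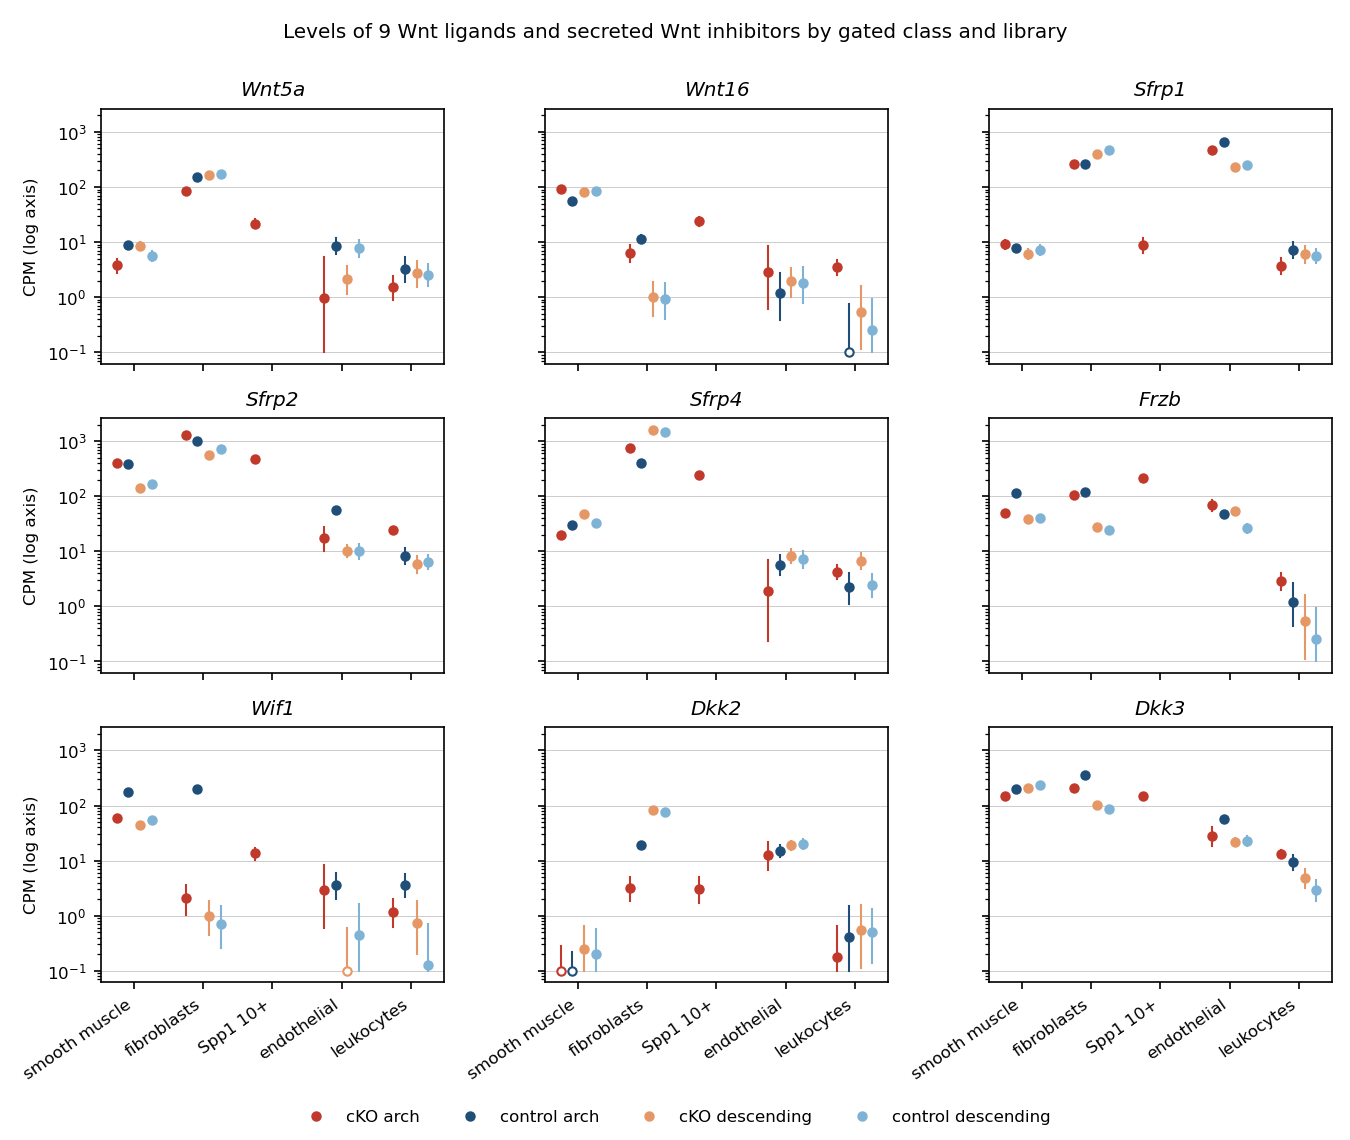
Level of each of the 9 genes in CPM (log axis) in smooth muscle, fibroblasts, Spp1 10+ cells, endothelial cells and leukocytes, by library. Classes under 50 cells in a library are not drawn, so Spp1 10+ cells appear for the cKO arch alone. Bars are 95% Poisson intervals and cover counting error only, and open markers are values under 0.1 CPM drawn at 0.1. Wif1 in fibroblasts stood at 197 CPM in the control arch and at 2.05 CPM or less in the other 3 libraries, and Dkk2 was near 0 in smooth muscle of all 4.

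Levels are UMIs of a gene summed over the gated cells of a library in each 1000000 UMIs of those cells (CPM), with exact 95% intervals. A ratio of levels is given on the log2 scale, with 0.5 UMI added to each arm, and has an exact conditional interval, and a gene is called past 2-fold where the ratio is at least 2-fold in either direction and both arms together hold at least 20 UMIs. Intervals cover counting error only, so a narrow interval says nothing about the spread between animals. Leukocytes, which are not known to make most of these proteins, are given as a guide to the level left by free RNA. Their median UMIs per cell, 4130 to 6664, were below the 11606 to 13822 of smooth muscle. The same number of free RNA molecules per cell thus gives a higher CPM in leukocytes. A smooth muscle level near theirs in CPM therefore need not be free RNA.

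Wnt5a (chr14:28504750-28527448, + strand, mm10, a protein-coding gene), the ligand best known for routes that bypass β-catenin, was mainly a fibroblast transcript. In fibroblasts it stood at 84.9 CPM (77.3 to 93.1) in the cKO arch, 152 CPM (145 to 159) in the control arch, 163 CPM in the cKO descending aorta and 171 CPM in the control descending aorta. The cKO arch was thus the low library, and the intervals of neighbours in the order of the other 3 overlapped. In smooth muscle the same order of libraries gave 3.76, 8.8, 8.41 and 5.64 CPM, against 1.54 to 3.25 CPM in leukocytes. For the cKO arch that was 0.0497 UMIs per smooth muscle cell against 0.00838 per leukocyte. The cKO arch to control arch ratio in smooth muscle was −1.21 (−1.68 to −0.80) on the log2 scale, past 2-fold on 50 and 404 UMIs, and that in fibroblasts was −0.84, short of it. The antisense gene Gm2670 overlaps Wnt5a, and the strand setting of the counting is not stated, so reads of the pair might not be told apart. Mesothelial cells also held Wnt5a, at 133 CPM in the control arch, 62.3 CPM in the cKO descending aorta and 73.2 CPM in the control descending aorta.

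Wnt16 (chr6:22288227-22298522, + strand), a ligand known in bone for keeping the cortical layer thick, was mainly a smooth muscle transcript. Its level in smooth muscle was 92.8 CPM (87.7 to 98.1) in the cKO arch, 54.7 CPM (52.6 to 56.9) in the control arch, 79.4 CPM (75.1 to 83.9) in the cKO descending aorta and 84.8 CPM (80.2 to 89.6) in the control descending aorta. The control arch was the low library, and the intervals of the pair of descending libraries overlapped. The arch ratio of cKO to control was 0.76 (0.66 to 0.86), short of 2-fold. A Wnt16 UMI was found in 39.9%, 37.9%, 40.9% and 43.9% of smooth muscle cells in the order used above, against at most 1.87% of leukocytes, whose median UMI counts are lower (4130 to 6664 against 11606 to 13822). Thinned to 3000 UMIs a cell, the smooth muscle shares were 16.3%, 13.1%, 17.2% and 17.3%. In fibroblasts the levels were 6.34, 11.5, 0.991 and 0.923 CPM, so both arch libraries lay above both descending ones. Leukocytes of the cKO arch held 3.53 CPM.

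Sfrp1 (chr8:23411502-23449632, + strand), which binds Wnt ligands through a domain like that of the Frizzled receptors, differed mainly by cell class. In fibroblasts it stood at 262 CPM in the cKO arch and 264 CPM in the control arch, with overlapping intervals (248 to 276 and 256 to 274). The descending libraries were higher, at 400 CPM (387 to 413) for the cKO and 477 CPM (462 to 491) for the control. Smooth muscle held 6.09 to 9.1 CPM in the 4 libraries, against 3.71 to 7.32 CPM in leukocytes. For the control arch that was 0.116 UMIs per smooth muscle cell against 0.0479 per leukocyte. Endothelial cells held 475 CPM in the cKO arch, 654 CPM in the control arch, 235 CPM in the cKO descending aorta and 252 CPM in the control descending aorta, so there the arch libraries were the higher ones. No Sfrp1 ratio between libraries in smooth muscle or fibroblasts was past 2-fold.

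Sfrp2 (chr3:83766321-83774316, + strand), a Frizzled-related protein known as a product of matrix-forming fibroblasts, was higher in the arch than in the descending aorta in both genotypes and both classes. In smooth muscle it stood at 409 CPM (399 to 420) in the cKO arch, 385 CPM (379 to 390) in the control arch, 141 CPM (136 to 147) in the cKO descending aorta and 167 CPM (161 to 174) in the control descending aorta. The arch to descending ratio was 1.53 (1.46 to 1.60) in the cKO and 1.20 (1.14 to 1.26) in the control. Both arch libraries lay above both descending ones, and the genotypes were close within each region, with cKO to control ratios of 0.09 for the arch and −0.24 for the descending aorta. Fibroblasts showed 1312, 991, 565 and 708 CPM in the same order of libraries, with arch to descending ratios of 1.22 in the cKO and 0.49 in the control. Leukocytes held 24.6 CPM in the cKO arch and 5.81 to 8.33 CPM elsewhere. The antisense gene Gm26771 overlaps the 3′ end of Sfrp2.

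Sfrp4 (chr13:19623104-19632994, + strand), a Frizzled-related protein whose loss in people causes the bone disorder Pyle disease, was a fibroblast transcript that was lower in the arch. Fibroblasts held 743 CPM (720 to 767) in the cKO arch, 407 CPM (396 to 418) in the control arch, 1593 CPM (1567 to 1619) in the cKO descending aorta and 1489 CPM (1463 to 1515) in the control descending aorta. The arch to descending ratio was −1.10 in the cKO and −1.87 (−1.92 to −1.83) in the control, both past 2-fold, and the cKO arch to control arch ratio was 0.87. A single control descending fibroblast held 780 Sfrp4 UMIs. In smooth muscle the levels were 19.7, 29.7, 48.3 and 32.2 CPM, and only the cKO arch to cKO descending ratio, −1.29 (−1.5 to −1.09), was past 2-fold. Smooth muscle in the cKO was lower than the control in the arch, at −0.59, and higher in the descending aorta, at 0.59.

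Frzb (chr2:80411970-80447625, − strand), also called Sfrp3 and first known from cartilage, set the control arch apart in smooth muscle. Its levels there were 50 CPM (46.3 to 54) in the cKO arch, 116 CPM (113 to 120) in the control arch, 38.7 CPM (35.7 to 41.8) in the cKO descending aorta and 40.5 CPM (37.3 to 43.8) in the control descending aorta. Only the control arch was clearly high, and the intervals of the descending pair overlapped. The cKO to control ratio was −1.22 (−1.34 to −1.10) for the arch and −0.07 for the descending aorta. The control arch to control descending ratio was 1.52 (1.40 to 1.65), and the same ratio in the cKO was 0.37. In fibroblasts the pattern was by region instead: the arch levels were 104 CPM in the cKO and 117 CPM in the control, and the descending levels 28 and 24.4 CPM.

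Wif1 (chr10:121033960-121100650, + strand), which binds Wnt ligands through its WIF domain, also set the control arch apart. In smooth muscle it stood at 59.3 CPM (55.2 to 63.6) in the cKO arch, 173 CPM (169 to 177) in the control arch, 44.9 CPM (41.6 to 48.3) in the cKO descending aorta and 53.5 CPM (49.9 to 57.3) in the control descending aorta. The cKO arch was 2.91-fold lower than the control arch, a log2 ratio of −1.54 (−1.65 to −1.44), whereas the descending ratio was −0.25. Across regions the control ratio was 1.69 (1.59 to 1.80) and the cKO ratio 0.40. A Wif1 UMI was found in 31.1%, 58%, 23.6% and 30% of smooth muscle cells, and after thinning to 3000 UMIs in 13.6%, 29.5%, 8.18% and 10.9%, against 0.112% to 2.26% of unthinned leukocytes.

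In fibroblasts Wif1 was almost all in 1 library. The control arch held 197 CPM (190 to 205) from 2495 UMIs, the cKO arch 2.05 CPM from 11 UMIs, the cKO descending aorta 0.991 CPM from 9 UMIs and the control descending aorta 0.693 CPM from 6 UMIs. Only the control arch stood clear of the leukocyte level, which was 3.66 CPM in that library, 1.18 CPM in the cKO arch and under 1 CPM in the descending aorta. The cKO arch to control arch ratio was −6.52 (−7.59 to −5.75) and the control ratio across regions was 8.04 (7.03 to 9.60). The 10% of control arch fibroblasts richest in Wif1 held 99.8% of its UMIs.

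Dkk2 (chr3:132085292-132180304, + strand), which blocks the Lrp5 and Lrp6 co-receptors, was a fibroblast transcript of the descending aorta. Fibroblasts held 3.17 CPM (1.85 to 5.08) in the cKO arch, 19.5 CPM (17.1 to 22.0) in the control arch, 83.6 CPM (77.7 to 89.7) in the cKO descending aorta and 77.8 CPM (72.0 to 83.9) in the control descending aorta. The descending pair overlapped, the control arch lay below them, and the cKO arch lay lowest. The ratios were −2.58 (−3.42 to −1.91) for cKO to control in the arch, −2.0 (−2.22 to −1.79) for arch to descending in the control and −4.68 (−5.51 to −4.03) in the cKO. Smooth muscle held 0, 4, 4 and 3 Dkk2 UMIs in the 4 libraries, so no ratio is given there; the 0 of the cKO arch allows a level of up to 0.226 CPM by the floor of 3 UMIs over the library's smooth muscle, and its 95% Poisson interval ends at 0.277 CPM. Endothelial cells held 12.5 to 20 CPM in the 4 libraries.

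Dkk3 (chr7:112116017-112159057, − strand), a Dickkopf family member that does not block the co-receptors as its relatives do, was detected in most smooth muscle cells of every library. A Dkk3 UMI was present in 66.6%, 81.3%, 74% and 79.3% of smooth muscle cells, against 2.34% to 6.36% of leukocytes, and after thinning to 3000 UMIs in 32.5%, 41.3%, 40.3% and 45.6%. Its levels were 152 CPM (145 to 159) in the cKO arch, 201 CPM (196 to 205) in the control arch, 212 CPM (205 to 220) in the cKO descending aorta and 233 CPM (226 to 241) in the control descending aorta, and no ratio between libraries was past 2-fold. In fibroblasts the arch was higher, with 211 CPM in the cKO and 359 CPM in the control, against 103 and 84.8 CPM in the descending aorta. The arch to descending ratio was 2.08 (1.97 to 2.20) in the control and 1.03 in the cKO.

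**Figure D2:**
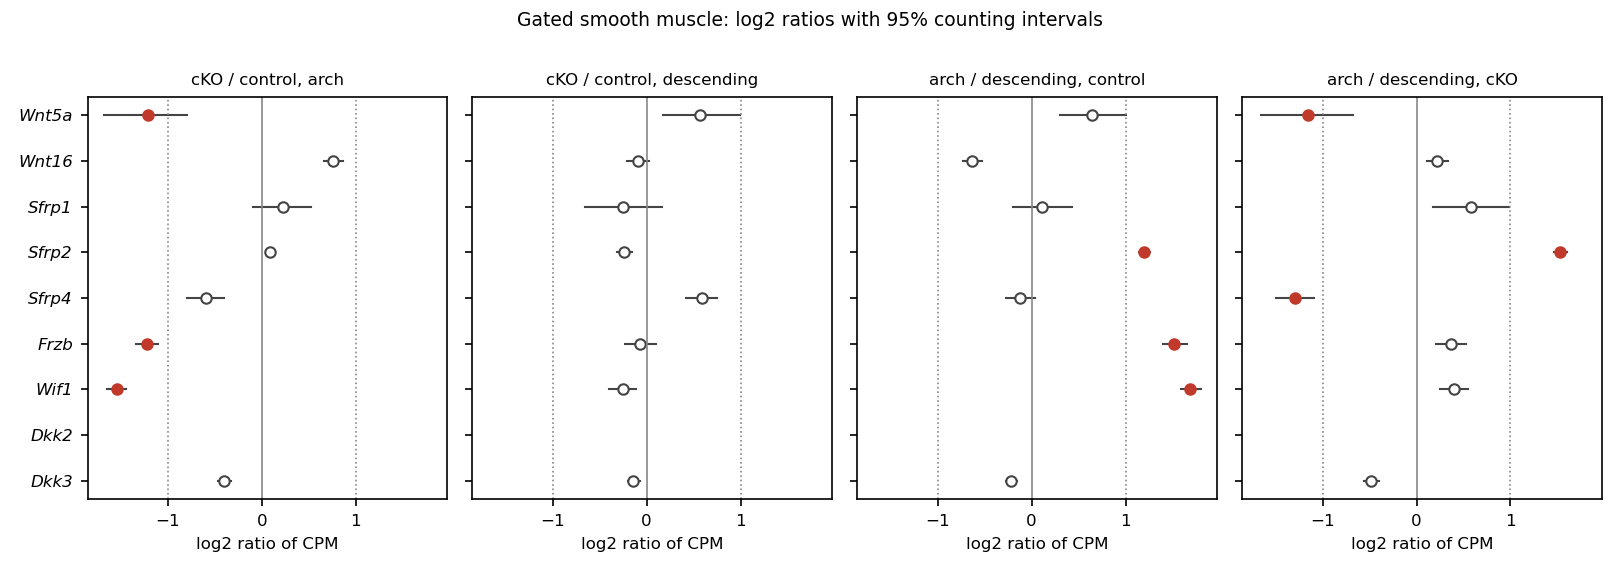
Log2 ratio of levels in smooth muscle for each member and each comparison of libraries, with 95% conditional intervals for counting error; red points are past 2-fold (dotted lines at −1 and 1) and members under 20 UMIs are not drawn. Wif1, Frzb and Wnt5a lie below −1 for cKO to control in the arch, and no member passes either line for the same contrast in the descending aorta.

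Counted over the members in smooth muscle, 3 of 8 with enough UMIs were past 2-fold between cKO and control in the arch, all lower in the cKO, and 14.6% of all genes tested were. In the descending aorta the count was 0 of 8, against 2.54% of all genes. Between arch and descending aorta, 3 of 8 were past 2-fold in the control, where the share of all genes was 9.32%, and 3 of 8 in the cKO, where it was 14.1%. The median log2 ratio of the members in those 4 comparisons was −0.49, −0.11, 0.37 and 0.30, and the median of all genes was −0.13, −0.04, −0.10 and −0.17. These contrasts were in view when the members were picked, so nothing is read from the counts. The medians of all genes past 0.1 in size mean that smooth muscle ratios in the arch and across regions sit slightly below 0 as a whole, and each ratio above is given without that shift removed.

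In fibroblasts, 2 of 9 members were past 2-fold between cKO and control in the arch, beside 16.3% of all genes, and 0 of 7 in the descending aorta, beside 3.28%. Across regions, 6 of 9 were past 2-fold in the control, beside 8.79%, and 7 of 9 in the cKO, beside 17.9%. Wnt16, Frzb and Dkk3 were past 2-fold and higher in the arch in both genotypes, and Dkk2 and Sfrp4 were past 2-fold and lower. The Wnt16 ratio in the cKO, 2.62 (1.59 to 3.92), rests on 34 and 9 UMIs, at 6.34 and 0.991 CPM. Leukocytes of those libraries held Wnt16 at 3.53 and 0.545 CPM. The Dkk3 ratio in the cKO, 1.03, was past 2-fold in 6 of 9 alternatives, with a lowest value of 0.69. Wif1 was clearly higher in the control arch only: its cKO ratio of 1.04 (−0.36 to 2.50) rests on 11 and 9 UMIs, has an interval that includes 0, compares levels near those of leukocytes, and was past 2-fold in 6 of 9 alternatives. The region comparisons share no library, but each shares its libraries with the genotype comparisons.

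**Figure D3:**
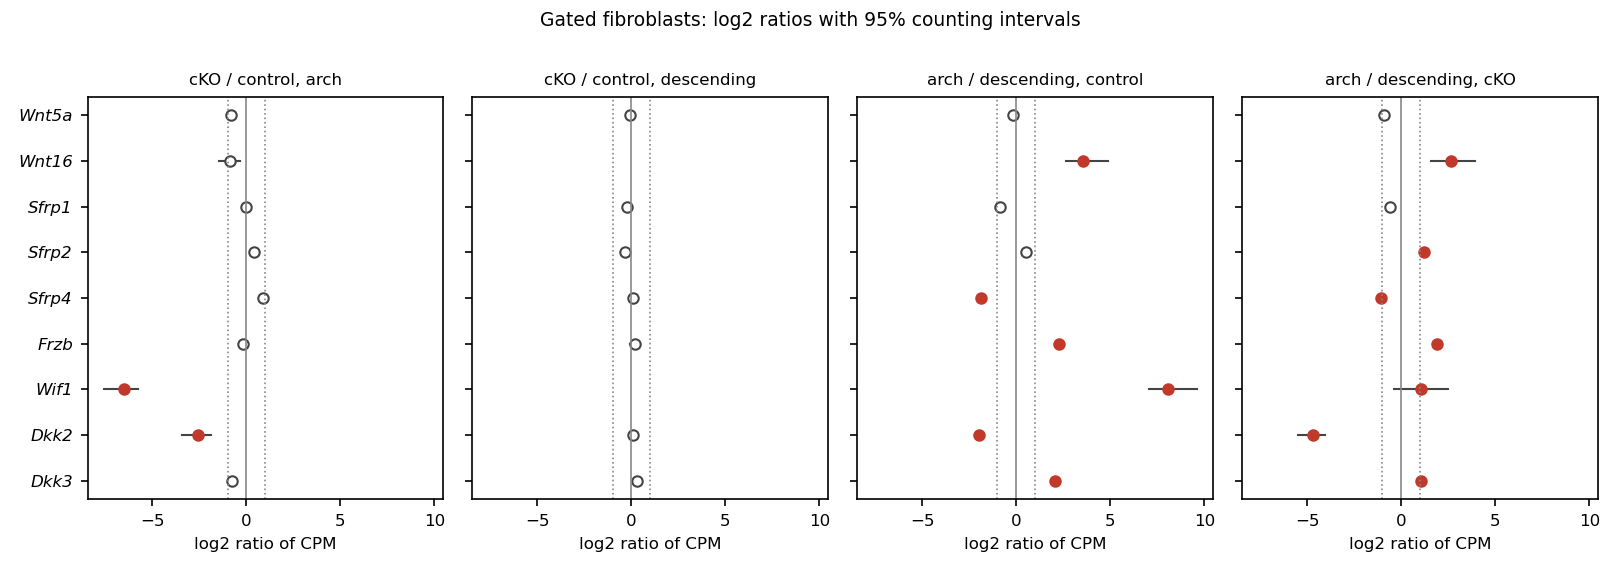
Log2 ratio of levels in fibroblasts for each member and each comparison of libraries, with 95% conditional intervals for counting error; red points are past 2-fold (dotted lines at −1 and 1). Wif1 and Dkk2 lie below −1 for cKO to control in the arch, and Wif1 and Dkk2 lie furthest from 0 across regions, at 8.04 in the control and −4.68 in the cKO.

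Several members were concentrated in small sets of cells, which were singled out after their values had been seen, apart from the sets split by Pi16. In the control arch, 153 of 1463 fibroblasts (10.5%) had a UMI of Tbx20, a T-box factor known from heart and valve development. These cells held 94.2% of the Wif1 UMIs, with 1457 CPM against 13.1 CPM in the rest, 90.4% of the Wnt16 UMIs, with 81.8 against 1.27 CPM, and 58.8% of the Dkk3 UMIs, with 1656 against 170 CPM. Frzb was higher in them too, at 280 against 93.2 CPM. Sfrp4 was lower, at 26.7 against 462 CPM, as were Sfrp2, at 262 against 1098 CPM, Dkk2, at 1.86 against 22 CPM, and Sfrp1, at 178 against 277 CPM. Tbx20 cells numbered 11 in the fibroblasts of the cKO arch, 1 in the cKO descending aorta and 2 in the control descending aorta.

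Without the Tbx20 cells, several fibroblast differences of the arch became smaller or turned. The cKO arch to control arch ratio went from −6.52 to −2.56 for Wif1, from −0.85 to 1.79 for Wnt16, from −0.77 to 0.30 for Dkk3 and from −0.17 to 0.19 for Frzb, whereas Dkk2 went from −2.58 to −2.79. The Wnt16 ratio then rested on 23 UMIs (4.44 CPM) in the cKO arch and 14 UMIs (1.27 CPM) in the control arch. Leukocytes of those libraries held Wnt16 at 3.53 and 0 CPM. For the control arch against the control descending aorta, Wif1 went from 8.04 to 4.12, Dkk3 from 2.08 to 1.00 and Wnt16 from 3.56 to 0.42. Why the number of Tbx20 cells differed between the libraries was not tested.

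Within smooth muscle, cells with at least 2 UMIs of Dlx5, Dlx6 and Msx2 together, homeobox genes of neural crest derivatives, numbered 60 in the cKO arch, 440 in the control arch, and 3 and 4 in the descending libraries. They were 5.96% of cKO arch and 14.3% of control arch smooth muscle. Frzb stood at 400 CPM in them against 21 CPM in the cells with none in the cKO arch, and at 415 against 57.3 CPM in the control arch. Sfrp2 stood at 2430 against 236 CPM in the cKO arch and at 973 against 254 CPM in the control arch. Both genes, and Sfrp4 with 71.8 against 16.3 CPM and 94.8 against 17.2 CPM, were higher in the homeobox cells of both arch libraries.

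Wnt16 and Wif1 ran the other way. Wnt16 stood at 30.1 CPM in the homeobox cells against 98 CPM in the cells with none in the cKO arch, and at 16.1 against 62.2 CPM in the control arch. Wif1 stood at 41.7 against 61.5 CPM and at 122 against 181 CPM. With the homeobox cells left out of smooth muscle, the control arch to descending ratio went from 1.52 to 0.64 for Frzb and from 1.20 to 0.76 for Sfrp2, both then short of 2-fold. The cKO ratio across regions turned from 0.37 to −0.59 for Frzb and went from 1.53 to 0.94 for Sfrp2. The genotype ratio in the arch stayed past 2-fold without them, at −1.26 for Frzb and −1.59 for Wif1.

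**Figure D4:**
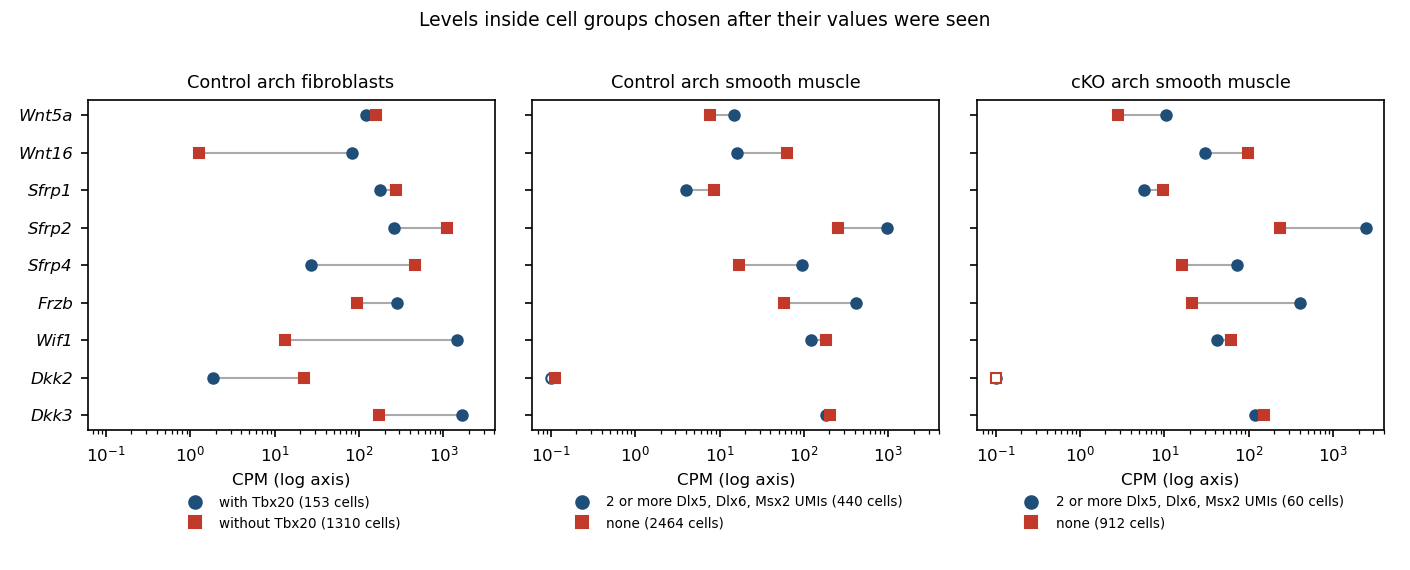
Levels in CPM (log axis) of the 9 members inside (circles) and outside (squares) a cell set chosen after its values were seen: Tbx20 fibroblasts of the control arch, and homeobox smooth muscle of the control and cKO arch. Grey lines join the pair, and open markers are values under 0.1 CPM drawn at 0.1. Wif1 stands at 1457 CPM in Tbx20 fibroblasts of the control arch against 13.1 CPM in the rest, and Frzb at 400 and 415 CPM in the homeobox smooth muscle of the cKO and control arch against 21 and 57.3 CPM.

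Fibroblasts were also split by Pi16, a marker of adventitial fibroblasts, at 2 or more UMIs against 0. Sfrp4 was higher in the Pi16 cells of every library, with 1236 against 338 CPM in the cKO arch, 484 against 47.8 CPM in the control arch, 1747 against 935 CPM in the cKO descending aorta and 1665 against 118 CPM in the control descending aorta. Sfrp2 was higher in them in 3 libraries, with 1057 against 642 CPM in the control arch, 631 against 105 CPM in the cKO descending aorta and 783 against 107 CPM in the control descending aorta. The cKO arch was the exception, with 1093 against 1516 CPM. Pi16 cells were 35.6% of the fibroblasts of the cKO arch against 78.3% in the control arch, and 80.6% (cKO) and 86% (control) in the descending aorta.

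Sfrp1 and Dkk2 were among the members higher in another set, the fibroblasts with at least 2 UMIs of Cilp, a cartilage intermediate layer protein. Sfrp1 stood at 654 against 207 CPM in the control arch, 1388 against 208 CPM in the cKO descending aorta and 1218 against 229 CPM in the control descending aorta. Dkk2 stood at 63.1 against 13.9 CPM, 315 against 37 CPM and 189 against 45 CPM in the same libraries. Both genes were thus higher in the Cilp cells of all 3 of these libraries. So was Sfrp4, with 556 against 367 CPM, 2516 against 1329 CPM and 2800 against 1054 CPM. In the control arch Wif1, at 446 against 154 CPM, and Dkk3, at 829 against 288 CPM, were higher in them as well. Frzb was lower in the Cilp cells of both descending libraries, at 8.65 against 32.5 CPM (cKO) and 11.1 against 29.5 CPM (control). The cKO arch had only 47 Cilp cells, with Sfrp1 at 652 against 213 CPM and Sfrp4 at 3007 against 541 CPM. Its Frzb stood at 15.3 against 115 CPM, and its Dkk2, on 6 and 11 UMIs, at 13.1 against 2.31 CPM.

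Members found together in single cells were counted after thinning to 3000 UMIs. These are the same cells as in the sets above, so the pairs are no separate support for those sets. At least 1 of the 9 members was detected in 71.9%, 83.2%, 66.4% and 70.5% of smooth muscle cells and in 88.6%, 91.9%, 88.2% and 89.8% of fibroblasts, in the order used above. Among control arch fibroblasts, Wif1 and Dkk3 were found together in 99 cells where independence gives 41.3, and Wif1 and Frzb in 48 where it gives 15.8. Wif1 and Sfrp4 met in 6 cells where independence gives 42.8. Sfrp1 and Dkk2 met 2.41, 2.09 and 2.06 times as often as independence gives in fibroblasts of the same 3 libraries as above (all but the cKO arch). In smooth muscle, Wif1 and Wnt16 met 1.35, 1.32, 1.44 and 1.35 times as often. Sfrp4 and Frzb met 2.11 times as often in smooth muscle of the control arch, and 1.49 and 1.04 times in the cKO and control descending aorta. Wif1 and Frzb met 1.05, 1.33 and 1.59 times as often as independence gives in smooth muscle of the control arch and of the cKO and control descending aorta, and in 5 cells where it gives 13.4 in the cKO arch.

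Spp1 10+ cells were almost all in the cKO arch. Of its 506 cells with at least 10 Spp1 UMIs, 195 were over the leukocyte limit and 6 over the endothelial one, some over both, which left 309. Among the 309, 35 had at least 5 UMIs of Myh11, 229 had at least 5 of the fibroblast markers, 21 had both and 66 neither, so the cells are named here by their gate. They held Tnfrsf11b at 1112 CPM and Comp at 2300 CPM, and 4 chondrocyte genes at 178 CPM in sum, with Matn3 and Snorc at 0.

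Against smooth muscle of the same library, Sfrp4, Frzb and Wnt5a were higher in the Spp1 10+ cells and Wif1 and Wnt16 were lower. Sfrp4 stood at 247 CPM against 19.7 CPM, a log2 ratio of 3.64 (3.45 to 3.84), Frzb at 213 against 50 CPM, a ratio of 2.09, and Wnt5a at 21.7 against 3.76 CPM, a ratio of 2.52. Wif1 stood at 13.5 against 59.3 CPM, a ratio of −2.12, and Wnt16 at 23.7 against 92.8 CPM, a ratio of −1.96. Sfrp2 was at 484 against 409 CPM, Sfrp1 at 8.79 against 9.1 CPM and Dkk3 at 150 against 152 CPM, all short of 2-fold. Dkk2 had 15 UMIs, found in 5 cells, against 0, and no ratio is given for it. In all, 5 of 8 members were past 2-fold, beside 20.2% of all genes.

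Against fibroblasts of the cKO arch, Sfrp1, Wnt5a, Sfrp4 and Sfrp2 were lower in the Spp1 10+ cells, with log2 ratios of −4.88, −1.96, −1.59 and −1.44. Wif1, Wnt16 and Frzb were higher, at 2.66, 1.89 and 1.03. Dkk3, at −0.49, and Dkk2, at −0.04, were short of 2-fold, so 7 of 9 were past it, beside 9.98% of all genes. The Spp1 10+ cells thus lay between the other classes for Sfrp2, Sfrp4, Wnt5a, Wif1 and Wnt16, and above both for Frzb. For Sfrp1 and Dkk3 they were close to smooth muscle, and for Dkk2 to fibroblasts. The Frzb ratio to fibroblasts was past 2-fold in 5 of 10 alternatives, and was 0.56 with no limit on leukocyte UMIs. The 6 cells of the control arch that met the gate held 149 Wif1 UMIs, 1243 CPM.

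Members were uneven within the Spp1 10+ cells of the cKO arch, in sets chosen after the values were seen. The 51 cells with a UMI of Ibsp or Dmp1, which encode bone matrix proteins, held 54.9% of the Sfrp4 UMIs, at 836 CPM against 133 CPM in the other 258, and less Sfrp2, at 85.9 against 561 CPM. The 35 cells with at least 5 Myh11 UMIs held 65.5% of the Wnt16 UMIs, at 75.6 against 10.3 CPM, and 48.5% of the Wif1 UMIs, at 31.8 against 8.75 CPM. Near the threshold, the 63 cells with 5 to 9 Spp1 UMIs held Sfrp2 at 1258, Frzb at 225 and Sfrp4 at 152 CPM, and the 37 cells with 10 to 14 held 450, 92.5 and 97.2 CPM. The 272 cells with 15 or more held 487, 224 and 261 CPM.

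**Figure D5:**
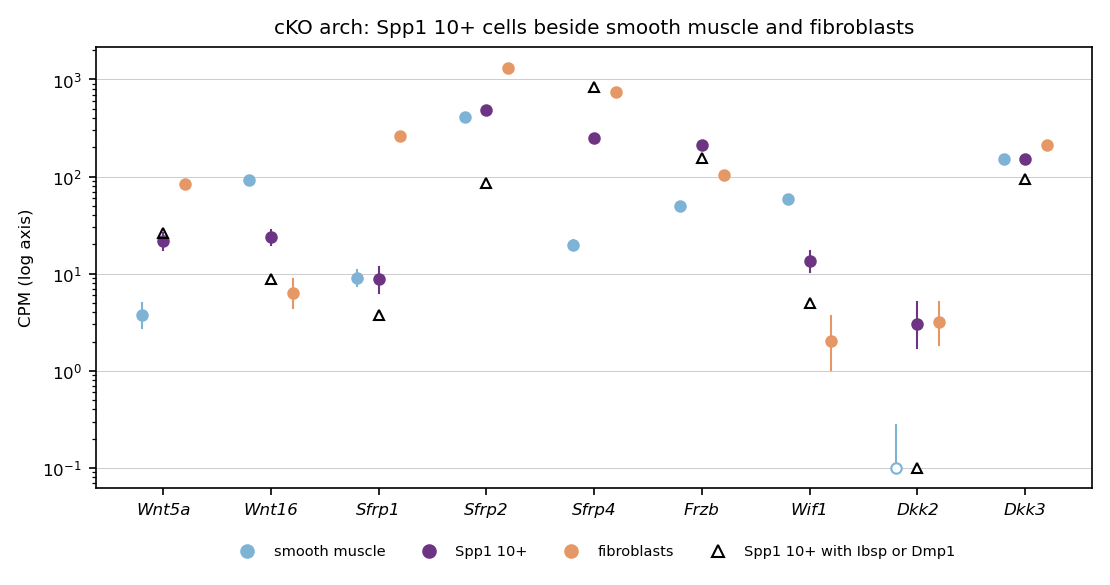
Level in CPM (log axis) of each member in smooth muscle, Spp1 10+ cells and fibroblasts of the cKO arch (circles, with 95% Poisson intervals for counting error), and in the Spp1 10+ cells with Ibsp or Dmp1 (triangles, no interval drawn); markers at 0.1 are values of 0. Of the 3 classes Frzb is highest in the Spp1 10+ cells, at 213 CPM, and Dkk2 was at 0 in smooth muscle and at 3.07 CPM in the Spp1 10+ cells.

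The file of the cKO arch alone lists a feature named RFP, taken here as a read-out of tdTomato from the reporter. At least 16 RFP UMIs were found in 31% of its smooth muscle cells, 34.9% of its fibroblasts and 41.4% of its Spp1 10+ cells, against 0.662% of endothelial cells and 0.148% of leukocytes. Among smooth muscle cells, the 312 RFP-high cells held Sfrp2 at 736 CPM against 299 CPM in the 594 with fewer than 8 UMIs, and Frzb at 96.1 against 36.8 CPM. Those ratios, 1.30 and 1.38, and that of Wnt5a, 1.72, were past 2-fold, which is 3 of 8 members beside 4.18% of all genes. The Wnt5a ratio (0.80 to 2.71) rests on 26 and 17 UMIs, at 7.16 and 2.15 CPM. The Frzb ratio went as low as 0.98 over 8 alternatives and was past 2-fold in 7. Wif1 and Wnt16 were lower in the RFP-high cells, at −0.74 and −0.94.

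In the Spp1 10+ cells, 128 RFP-high cells held Sfrp2 at 716 CPM against 295 CPM in 146 RFP-low ones, a ratio of 1.28, with Frzb at 1.13. Over 8 alternatives the Sfrp2 and Frzb ratios went as low as 0.79 and 0.91, and each was past 2-fold in 6. Wnt16, at −1.46, and Sfrp4, at −1.09, were lower in the RFP-high cells, but the Sfrp4 ratio ranged from −1.47 to −0.14 over 8 alternatives and was past 2-fold in 5. It was −0.14 with the gates set on UMIs scaled to each cell's total. That made 4 of 8 members past 2-fold, beside 4.75% of all genes. Among fibroblasts, 209 RFP-high cells held Sfrp1 at 127 CPM against 368 CPM in 355 RFP-low ones, a ratio of −1.53, and it was the 1 of 7 members past 2-fold, beside 4.28% of all genes. Sfrp2 ran the other way from smooth muscle there, at −0.76.

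Other genes of the pathway were followed in lists by role, with the same 2-fold and 20-UMI rule. In arch fibroblasts, 8 of the 17 other Wnt ligands could be compared: 1 was higher in the cKO and 6 were lower, beside 16.3% of all genes past 2-fold in either direction, with a median log2 ratio of −1.66 beside −0.05 for all genes. Wnt2b stood at 2.61 against 32 CPM, a ratio of −3.57, and Wnt11 at 12.1 against 47.1 CPM, a ratio of −1.95. Rspo3, an R-spondin that heightens the response of cells to Wnt, ran the other way, at 207 against 36.5 CPM, a ratio of 2.50. Among 16 receptors and co-receptors 3 were higher and 1 lower, with the Frizzled receptor Fzd1 at 132 against 32.9 CPM. Of 10 genes known as transcriptional targets of β-catenin, 5 were higher and 1 lower, beside the same 16.3% of all genes. The targets differed in both directions: Ccn4 stood at 53.5 against 6.72 CPM, a ratio of 2.99, and Axin2, a feedback inhibitor, at 3.36 against 12.2 CPM, a ratio of −1.82.

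In arch smooth muscle, 3 of 6 other ligands were lower in the cKO and none was higher, beside 14.6% of all genes past 2-fold, with Wnt5b at 1.65 against 8.15 CPM, a ratio of −2.27. Of 11 targets 3 were higher and 1 lower, with the cell-cycle gene Ccnd1 at 26.9 against 1.18 CPM, a ratio of 4.50. Of the receptors 1 of 15 and of the signal transducers 1 of 16 were past 2-fold, both lower, beside the same 14.6%, the Frizzled receptor Fzd6 at −1.04 and the Dishevelled gene Dvl3 at 8.72 against 28.9 CPM. Sost, the secreted inhibitor sclerostin that binds Lrp5 and Lrp6, stood at 728 CPM in the cKO arch, 1040 CPM in the control arch, 482 CPM in the cKO descending aorta and 506 CPM in the control descending aorta. Its arch to descending ratio was past 2-fold in the control, at 1.04, and not in the cKO, at 0.59, and its genotype ratio in the arch was −0.51. In descending smooth muscle, 1 of 4 other ligands and 1 of 9 targets were past 2-fold, both higher in the cKO, beside 2.54% of all genes.

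Across regions in control smooth muscle, Rspo3 was higher in the arch, at 29.3 against 6.7 CPM, a ratio of 2.12, and Fzd4 lower, at 23.3 against 56 CPM, a ratio of −1.27. The cKO showed the same directions, at 2.21 and −1.90. In the Spp1 10+ cells against smooth muscle of the cKO arch, 6 of 10 targets were higher and 1 lower, beside 20.2% of all genes past 2-fold, with a median log2 ratio of 2.09 beside 0.06 for all genes. Ccn4 stood at 3.33, Nkd2 at 3.23 and Myc at 2.51 on the log2 scale, and Sost was at 115 against 728 CPM, a ratio of −2.66. The same cells held Rspo3 at 261 against 37.9 CPM, a ratio of 2.78. Set against fibroblasts of the cKO arch instead, 1 of 10 targets was higher and 1 lower, beside 9.98% of all genes past 2-fold. The median log2 ratio of the targets was then 0.15, beside −0.02 for all genes. Those fibroblasts also held Rspo3, at the level given above.

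In fibroblasts across regions, Rspo3, Lgr6 and Sost were higher in the arch, whereas Rspo2 was lower there in the control (−1.58) and higher in the cKO (1.75). Rspo3 stood at 36.5 against 16.9 CPM in the control, a ratio of 1.11, and at 207 against 11.4 CPM in the cKO, a ratio of 4.17. Lgr6, a receptor of R-spondins, stood at 11.8 against 0.808 CPM in the control and 14.9 against 2.2 CPM in the cKO. Sost stood at 26.4 against 2.89 CPM in the control and at 50.9 against 5.28 CPM in the cKO, so all 3 genes were past 2-fold in both genotypes. Smooth muscle of every library held far more Sost, and the part of free RNA in the fibroblast levels was not tested. Of the other ligands, 6 of 8 were lower in the arch in the cKO, beside 17.9% of all genes past 2-fold, and 1 of 8 in the control, beside 8.79%, with medians of −1.98 and −0.42. None of 6 planar polarity genes, 15 transducers or 2 ligand-secretion genes passed the rule in fibroblasts in either genotype.

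The other lists in the arch genotype comparisons stand beside 16.3% of all genes past 2-fold in fibroblasts and 14.6% in smooth muscle. Among 3 other antagonists with enough UMIs, Apcdd1, a membrane inhibitor of Wnt signalling, was lower in cKO arch fibroblasts, at 2.24 against 19 CPM, and none passed in smooth muscle. Of the planar polarity genes, 1 of 8 passed in smooth muscle, Prickle1 at 6.99 against 15.8 CPM, and 0 of 6 in fibroblasts. Sost was lower in the RFP-high cells of each class of the cKO arch, with 360 against 852 CPM in smooth muscle, 70.9 against 151 CPM in Spp1 10+ cells and 29.6 against 68.9 CPM in fibroblasts. The part of free RNA in the fibroblast values was not tested.

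The genes whose level over 20 class-by-library points was most like that of a member were found by Pearson correlation of log2(CPM + 1) among 10627 genes. The nearest were Slc25a34 for Wif1 (r = 0.886), with Tbx20 next at 0.883, Heg1 for Sfrp1 (0.964), Col1a2 for Sfrp2 (0.972), Fbln7 for Sfrp4 (0.959) and Smoc1 for Frzb (0.944). Gap43 was nearest to Dkk2 (0.942), Lhfp to Dkk3 (0.971), Tmeff2 to Wnt5a (0.970) and Map7d2 to Wnt16 (0.971). The points share libraries and are dominated by differences between cell classes, so these values describe likeness of pattern only.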

How the data were processed

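The 4 single-cell libraries (5′ chemistry), 1 per group, were deposited as UMI count matrices: whole-number counts per gene and barcode, made by the authors with Cell Ranger 6.1.1 against mm10, per the submitters' processing notes, whereas the file headers name 6.1.2. The gene annotation used for counting is not stated. Cells with at least 500 genes and under 10% mitochondrial UMIs were kept, and the highest Scrublet scores were removed at 0.8% per 1000 barcodes (264 to 641 cells a library). Total UMIs per library were 49407811 to 98866674. Only the 27734 shared genes entered library totals, 99.5% to 99.6% of UMIs.

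Cells were gated on raw UMIs. Smooth muscle had at most 3 fibroblast UMIs, and both it and fibroblasts had under 10 Spp1 UMIs and at most 2 leukocyte, endothelial, mesothelial or Schwann UMIs; Spp1 10+ cells had at most 2 leukocyte and 2 endothelial UMIs. UMIs were summed per class and library. Poisson, conditional binomial and Clopper-Pearson intervals are at 95%. With 1 library a group there is no test or p-value, and no replicate that could be left out. The ratio code was tested on simulated data.

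The members, gates and lists were chosen with earlier results of these data known. All 9 members are named in every comparison; other pathway genes are named from the 4 furthest from 0 in a list, and the 1 most like each member by correlation, with Tbx20 named as the next for Wif1. Alternatives covered scaling, depth, doublets, gates, filters, free RNA and fold. Coordinates are from a GENCODE annotation of GRCm38. Python 3.11.15, numpy 2.4.6, scipy 1.17.1, pandas 2.3.3, scanpy 1.11.5 and matplotlib 3.10.9 were used.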

Additional observations from a re-analysis of the deposited data

Results flagged for a closer look

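For some members the cKO to control ratio lay on opposite sides of 0 in the 2 regions, with neither interval for counting error reaching 0; with 1 library a group, none of these differences was tested. In smooth muscle the arch ratio minus the descending ratio was −1.79 (log2) for Wnt5a, the ligand of β-catenin-independent routes, which was lower in the cKO in the arch (−1.21) and higher in the descending aorta (0.57). It was −1.18 for Sfrp4, with ratios of −0.59 and 0.59. The Sfrp4 arch ratio was −0.15 without the cells with at least 2 UMIs of Dlx5, Dlx6 and Msx2 together. For Sfrp2 the difference was 0.33, with ratios of 0.09 and −0.24. Without those cells the Sfrp2 arch ratio was −0.04, so the ratios then lay on the same side of 0. In fibroblasts the difference was −1.05 for Dkk3, with ratios of −0.77 and 0.28, and 0.73 for Sfrp2, with 0.40 and −0.33. The Dkk3 arch ratio in fibroblasts was 0.30 without the cells that held Tbx20, so its direction rests on them.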

How the results depend on the processing

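The number of members past 2-fold was recomputed under each alternative, and of 153 such values 137 stayed within 1.5 times the main count and 16 moved. Single values moved more often: 230 of 933 log2 ratios and 189 of 567 CPM values moved beyond their counting interval, among them 69 of 81 CPM values with the leukocyte level subtracted. With no doublet removal, RFP-high against RFP-low fibroblasts gave 2 members in place of 1. With every cell thinned to 3000 UMIs, the descending smooth muscle genotype comparison gave 1 in place of 0, cKO fibroblasts across regions 4 in place of 7, and the RFP comparisons 2 in place of 4 in Spp1 10+ cells and 2 in place of 1 in fibroblasts. A mean over cells gave 6 in place of 3, 1 in place of 4 and 2 in place of 1 for RFP in smooth muscle, Spp1 10+ cells and fibroblasts. Subtracting the leukocyte level gave 5 in place of 2 for the arch fibroblast genotype comparison. At 1.5-fold the counts were 5 for smooth muscle genotype in the arch, 1 in the descending aorta, 5 across regions in the control, 6 for arch fibroblast genotype, 6 for RFP in smooth muscle and 3 in fibroblasts. Leaving out the Dlx5, Dlx6 and Msx2 cells, an alternative chosen after seeing the data like those on Tbx20, the Spp1 threshold, the leukocyte limit and RFP in fibroblasts, gave 1 in place of 3 across regions in control smooth muscle. The causes were not tested. Wif1 in smooth muscle, cKO against control in the arch, ranged from −1.61 to −1.40 over 9 alternatives and was past 2-fold in all 9. The control arch fibroblast ratio across regions ranged from 0.42 to 3.87 for Wnt16, and Frzb in Spp1 10+ cells against fibroblasts was past 2-fold in 5 of 10. No paired analysis was possible because each group has 1 library and the comparisons give no test. Members under 20 UMIs in both arms together, such as Dkk2 in smooth muscle, were not called. Whether depth or a near absence of the transcript lies behind this was not tested.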
